A study of Mus musculus with 7 samples.

Results

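Glycolysis splits glucose into pyruvate in the cytosol, and its mRNA fragments were measured here in small RNA libraries of crude heart mitochondria. The members are the 10 genes Hk1, Hk2, Pfkm, Aldoa, Gapdh, Pgk1, Eno3, Pkm, Ldha and Ldhb, taken by name from a table of 49584 features, where each name matched 1 feature. The 3 control libraries (L/L, genotype Tefm +/+) and the 4 knockout libraries (L/L, cre, genotype Tefm -/-) came from mice with loxP sites around an exon of Tefm, the gene of the mitochondrial transcription elongation factor. In the knockouts the exon was removed by cre under a muscle creatine kinase promoter, active in heart and skeletal muscle, so that other cells of the heart keep the gene. Age, sex and strain are not stated in the labels. Each library was taken as 1 animal, and where it is not, the p-values speak only of variation among libraries. The study compares the RNA of heart mitochondria with and without the factor.

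Glucose enters the pathway through hexokinases (Hk1 and Hk2), which can sit on the outer mitochondrial membrane, and phosphofructokinase (Pfkm in muscle) commits it to breakdown. Aldolase (Aldoa), glyceraldehyde-3-phosphate dehydrogenase (Gapdh), phosphoglycerate kinase (Pgk1), enolase (Eno3 in muscle) and pyruvate kinase (Pkm) follow, and lactate dehydrogenase subunits A and B (Ldha and Ldhb) convert pyruvate and lactate into each other. The adult heart draws most of its energy from fatty acids and takes up lactate, and its lactate dehydrogenase is rich in the B subunit.

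The genes on which the results turn are shown by the 250 bases before an annotated start of transcription (RefSeq, GRCm38.p6, written 5′ to 3′ on the strand of the gene). Capitals mark ACGTG on either strand, a form of the core of the element to which hypoxia-inducible factors bind. Other forms of that core were not searched, so a window without ACGTG may still hold it. The windows lie at chr10:62379909-62380158 (minus strand) for Hk1, chr6:82774455-82774704 (minus) for Hk2, chr11:70656926-70657175 (plus) for Eno3, chr6:142507958-142508207 (minus) for Ldhb and chr7:46845554-46845803 (plus) for Ldha.
Hk1: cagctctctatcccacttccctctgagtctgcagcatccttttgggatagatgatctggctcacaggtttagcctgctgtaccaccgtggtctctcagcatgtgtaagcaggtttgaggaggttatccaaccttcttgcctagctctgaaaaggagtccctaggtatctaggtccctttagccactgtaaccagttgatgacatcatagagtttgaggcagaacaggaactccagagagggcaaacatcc
Hk2: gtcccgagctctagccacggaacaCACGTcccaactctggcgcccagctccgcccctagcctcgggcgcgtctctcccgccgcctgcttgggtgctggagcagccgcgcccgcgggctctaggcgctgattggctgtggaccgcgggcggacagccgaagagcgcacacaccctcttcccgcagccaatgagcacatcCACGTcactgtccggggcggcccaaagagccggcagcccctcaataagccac
Eno3: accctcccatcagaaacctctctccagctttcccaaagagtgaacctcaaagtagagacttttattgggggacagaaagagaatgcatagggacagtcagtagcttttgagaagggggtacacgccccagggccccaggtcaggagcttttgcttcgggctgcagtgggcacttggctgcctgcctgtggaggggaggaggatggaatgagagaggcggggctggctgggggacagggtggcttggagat
Ldhb: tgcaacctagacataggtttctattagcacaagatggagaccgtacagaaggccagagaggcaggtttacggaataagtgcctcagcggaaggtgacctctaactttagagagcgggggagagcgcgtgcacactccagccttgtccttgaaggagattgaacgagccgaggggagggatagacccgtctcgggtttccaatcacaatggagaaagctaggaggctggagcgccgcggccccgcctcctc
Ldha: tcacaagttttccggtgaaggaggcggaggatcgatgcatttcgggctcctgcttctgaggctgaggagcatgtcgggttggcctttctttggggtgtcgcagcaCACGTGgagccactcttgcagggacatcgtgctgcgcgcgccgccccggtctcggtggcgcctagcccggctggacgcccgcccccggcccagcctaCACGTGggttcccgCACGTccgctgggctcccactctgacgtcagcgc
The Hk1, Eno3 and Ldhb windows shown hold no ACGTG. The Hk2 window holds it at 2 positions and the Ldha window shown at 5. There CACGTG, an E-box that contains ACGTG on both strands, counts for 2. Hk1 and Ldha each have a further annotated start, whose window is not shown and holds no ACGTG. Over all annotated starts, 8 of the 18 windows of the members hold ACGTG, against 16.57% of 32851 windows of the same length. Of the 18, 2 hold CACGTG, against 6.021%. Windows of a gene can overlap, and 2 overlapping Aldoa windows hold the same ACGTG, which counts in both. By gene, 6 of 10 have such a window (Hk2, Pfkm, Aldoa, Pgk1, Pkm and Ldha), against 18.49% of genes. A gene counts here if any of its windows does. The members have more windows per gene (18 over 10 genes, against 32851 over 27025), which raises their share. These are counts of letters and show no binding.

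The libraries held 29203 to 188642 counts at nuclear protein-coding genes, which were 2.28% to 18.2% of all counts, since mitochondrially encoded RNAs took most of the rest. Levels below are counts per 1000000 nuclear protein-coding counts (CPM-nuc), and 1 count was worth from 5.3 CPM-nuc in knockout 4 to 34.2 CPM-nuc in knockout 1. The 20 most abundant nuclear genes took 27.3% to 33.1% of that total in controls and 15.9% to 20.2% in knockouts, and with this scaling the median log2 fold change of all 1602 features tested was 0.27. With TMM scaling, which follows most genes, it was -0.01, so member fold changes are best read against 0.27. Tefm had 0, 2 and 1 counts in controls and 0, 1, 0 and 2 in knockouts, too few to check the labels, and counts outside the deleted exon would not report the deletion. All 11 cardiomyocyte markers (Myh6, Actc1, Ryr2 and others) were detected in amounts that could be tested, and none of 10 skeletal muscle markers was. Libraries differed widely in small RNA content: microRNA plus snoRNA counts over nuclear protein-coding ones, as a log2 ratio, ran from -1.35 to 2.88 in controls and from -2.44 to 3.11 in knockouts.

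As a group the members kept about the same share of nuclear mRNA fragments, while single members moved in opposite directions. Their sum was 4817 ± 711 CPM-nuc in the 3 controls and 5176 ± 362 in the 4 knockouts (mean ± SD), and the groups overlapped. Of the 10 members, 8 had enough counts to test, of which Hk1 rose, Eno3 fell and 6 did not pass (edgeR's quasi-likelihood test, Benjamini-Hochberg adjusted p under 0.05). Of all 1602 features tested, 8.3% were called higher and 1.56% lower, the background against which 1 call in each direction among 8 is read. Their median log2 fold change was 0.38, beside 0.27 over all features, with 5 positive and 3 negative. Hk1 lay higher in knockouts without overlap, as did 19.9% of all features tested, and Pfkm, Eno3 and Ldhb lay lower without overlap, as did 7.37%.

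**Figure D1:**
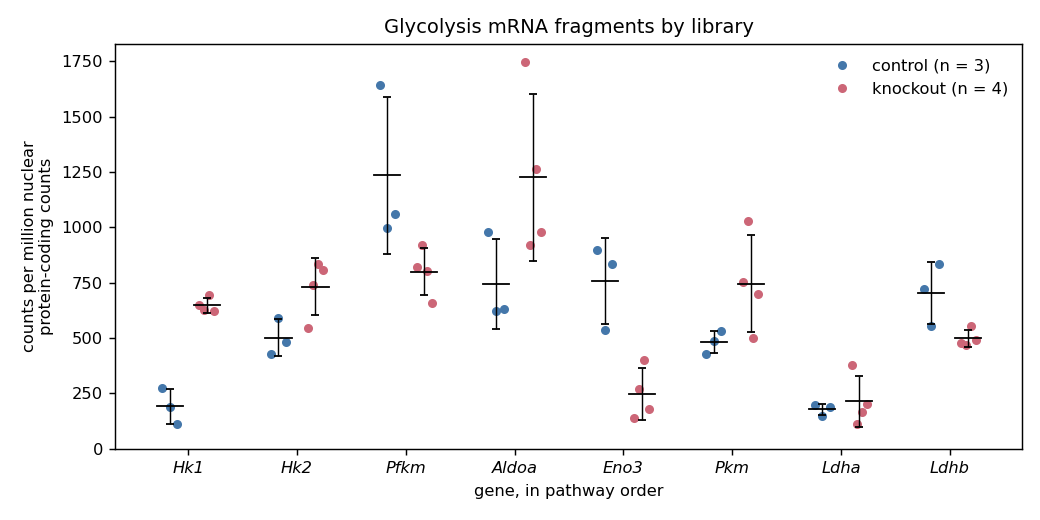
Counts per 1000000 nuclear protein-coding counts (vertical axis) for the 8 members tested (horizontal axis), with a point for each library and bars for the mean ± SD of 3 control and 4 knockout libraries. The 4 knockout values of Hk1 lie between 620 and 694, above the highest control at 274, and those of Eno3 lie between 137 and 403, below the lowest control at 537.

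Hk1, the hexokinase of most tissues, rose 3.42-fold. It had 274, 187 and 114 CPM-nuc in controls 1 to 3 and 651, 628, 694 and 620 in knockouts 1 to 4. The knockouts lay close together and all above the controls. The low-count filter asks for about 139 CPM-nuc in 3 libraries. Hk1 reached that level in 2 controls and 4 knockouts, so it entered the test through the knockouts, where it was high. The log2 fold change was 1.77 ± 0.32 (SE; edgeR adjusted p = 0.0178), from 53 counts over the controls to 214 over the knockouts. It ran from 1.48 to 2.78 over 22 alternative settings. The call ended without control 2 (edgeR adjusted p = 0.0853), control 3 (0.0662) or knockout 3 (0.0506), and under scaling to total counts (0.285), mitochondrial counts (0.299) or microRNA counts (0.954). In the authors' deposited table its log2 fold change was 1.44 (adjusted p = 0.00115). Hk1 lies on chromosome 10 (62268855 to 62379908, minus strand, GRCm38), and Hk1os on the opposite strand overlaps its exons. The sources used here do not state whether counting used strand, so reads of the pair cannot be told apart.

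Hk2, the hexokinase typical of muscle that responds to insulin, had 430, 593 and 481 CPM-nuc in controls and 548, 740, 833 and 806 in knockouts. Knockout 1 lay below control 2, so the groups overlapped. Its log2 fold change was 0.55 ± 0.28 (edgeR adjusted p = 0.258). Within each library, the log2 ratio of Hk1 to Hk2 counts was -0.63, -1.65 and -2.02 in controls and 0.24, -0.23, -0.26 and -0.38 in knockouts. It did not overlap, and differed by 1.28, a 2.42-fold shift towards Hk1 that no scaling between libraries can alter (two-sided exact permutation test over 35 splits, p = 0.0286, the smallest such a test can give; 0.0429 adjusted over 3 isoform ratios). The 25-base stretches of the Hk1 and Hk2 transcripts are almost all distinct, with 3 shared out of 8687 and 5957.

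Pfkm, the muscle subunit of phosphofructokinase, had 1643, 998 and 1063 CPM-nuc in controls and 822, 919, 805 and 657 in knockouts. All knockouts lay below all controls, the nearest being 919 and 998. Its log2 fold change was -0.62 ± 0.33 (edgeR adjusted p = 0.273) and was positive under scaling to total, mitochondrial or microRNA counts. With a library left out it ran from -0.76 to -0.37, the latter without control 1, the library with the highest Pfkm. In DESeq2 with its own size factors, which called 7.05% of features lower, Pfkm passed (-0.91, adjusted p = 0.00679), and in the authors' deposited table it stood at -0.88 (adjusted p = 0.0164). Its exons overlap Senp1 on the opposite strand and Gm26513 on the same strand.

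Pfkp, the platelet-type subunit of the same enzyme, is no member but rose, from 0, 37.4 and 101 CPM-nuc in controls to 274, 448, 250 and 265 in knockouts (log2 fold change 2.61 ± 0.59, edgeR adjusted p = 0.0335). Only in knockouts was it above the level that the low-count filter asks for. The log2 ratio of Pfkm to Pfkp counts, formed after the values were seen and not tested, was 4.63 and 3.31 in controls 2 and 3 and 1.53, 1.02, 1.66 and 1.3 in knockouts, and is not given for control 1, which had 0 Pfkp counts. The Pfkp call ended with TMM scaling (edgeR adjusted p = 0.0534), under scaling to total (0.101), mitochondrial (0.111) or microRNA counts (0.954), and without control 2 (0.155), knockout 2 (0.0501) or knockout 3 (0.0789), and without control 3 the log2 fold change was 3.48. Pfkl, the liver-type subunit, was at 1.1 ± 0.48 (edgeR adjusted p = 0.184).

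Aldoa, the aldolase of muscle and most tissues, had 978, 624 and 633 CPM-nuc in controls and 1746, 919, 1263 and 981 in knockouts. Control 1 lay within the knockout range, and knockout 1 was highest. Its log2 fold change was 0.72 ± 0.38 (edgeR adjusted p = 0.273). In knockouts it took the largest mean share of the members' counts, 23.5% ± 5.9 (SD, n = 4) against 15.3% ± 2.07 (SD, n = 3) in controls.

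Gapdh and Pgk1, which carry out the first energy-yielding steps, were close to undetected, with 13 counts each over all 7 libraries. Gapdh had 0, 5 and 0 counts in controls and 1, 1, 2 and 4 in knockouts, a ratio of 1.39 per nuclear protein-coding count (exact 95% interval 0.401 to 5.4). Pgk1 had 0, 1 and 2 and then 0, 4, 2 and 4 counts, a ratio of 2.89 (0.745 to 16.4). These intervals cover counting error alone, and with so few counts no difference was detectable. Of the 25-base stretches of Gapdh transcripts, 27.4% also occur in an annotated pseudogene, and 55% of those of Pgk1 do, against 0.282% for Eno3 and 0% for Hk1. The sources used here do not state how reads with several matches were counted, and the part of these copies in the low counts was not tested.

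Eno3, the muscle enolase, fell 2.99-fold. It had 900, 537 and 835 CPM-nuc in controls and 137, 269, 403 and 180 in knockouts, so every knockout lay below every control. The log2 fold change was -1.58 ± 0.39 (edgeR adjusted p = 0.044), from 198 counts over the controls to 79 over the knockouts, and it was negative under all 22 alternative settings (-1.93 to -0.57). The call held without knockout 3 and ended without any other single library (edgeR adjusted p from 0.0727 to 0.141), under scaling to total, mitochondrial or microRNA counts (0.69, 0.723 and 0.954), and with a minimum count of 5 (0.0562). The authors' deposited table gives -1.72 (adjusted p = 0.00162). Eno3 lies on chromosome 11 (70657202 to 70662513, plus strand, GRCm38), with no other gene over its exons.

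Eno3 was lower relative to Eno1, the widely expressed enolase, in a ratio that reuses the Eno3 counts above and is no separate evidence of their fall. Within each library the log2 ratio of Eno3 to Eno1 counts was 4.95, 5.11 and 5.47 in controls and 0.85, 1.84, 3.08 and 2.65 in knockouts, a difference of -3.08 without overlap (two-sided exact permutation test, p = 0.0286, adjusted p = 0.0429). The size is uncertain, since Eno1 had 1, 2 and 1 counts in controls and 2, 3, 3 and 5 in knockouts, and with a pseudocount of 5 in place of 0.5 the difference was -2.08. The Eno1 counts alone give a ratio of 2.82 between the groups (exact 95% interval 0.872 to 11.9). Each gene of a pair needed at least 10 counts over all libraries. Eno1 had 4 over the controls and 13 over the knockouts, so the pair was tested only through the group where Eno1 was high.

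Eno3 is expressed by cardiomyocytes and skeletal muscle, and the summed levels of 2 of 9 marker lists, those of cardiomyocytes and white blood cells, were lower in knockouts without overlap. Of the 11 cardiomyocyte markers, 10 had negative and 1 (Mybpc3) a positive fold change, none passing, with a median of -0.65, and their sum went from between 93197 and 143413 CPM-nuc in controls to between 58853 and 82629 in knockouts. Skeletal muscle markers summed to 25 counts in control 1, of which 9 were at Myh4, a fast myosin, and to at most 2 in each other library. Without control 1 the Eno3 fold change was -1.44. The sums of white blood cell markers went from between 665 and 987 to between 319 and 651 CPM-nuc. Control 1 at 665 and knockout 1 at 651 were closer than the worth of 1 count in either (19.6 and 34.2 CPM-nuc). Of all single features tested, 7.37% lay lower without overlap. The sums of endothelium (1957 to 2926, then 986 to 2168), fibroblast (4872 to 8008, then 4760 to 10936), smooth muscle and erythroid markers overlapped. Erythroid sums lay between 111 and 411 CPM-nuc, smooth muscle sums between 516 and 1632, and liver and neural sums at or below 103 in every library. Among single markers Postn of fibroblasts rose (log2 fold change 2.85 ± 0.50, edgeR adjusted p = 0.0161), and Cd74 of white blood cells (-2.0 ± 0.37, adjusted p = 0.0191) and Acta2 of smooth muscle (-1.29 ± 0.30, adjusted p = 0.0379) fell. These 3 calls ended without control 2 or control 3, and that of Acta2 without any single library but knockout 1. Postn was under the filter's 139 CPM-nuc in every control, and Cd74 and Acta2 in every knockout. Each was thus tested only through the group where it was high. Of the 7 fibroblast markers 4 had positive and 3 negative fold changes, and Dcn was lower without overlap (-0.61 ± 0.42, edgeR adjusted p = 0.397). All 3 tested markers of white blood cells and all 3 of smooth muscle had negative fold changes. Of those not tested, Ptprc of white blood cells went from 4 counts over controls to 18 over knockouts. Coro1a went from 3 to 5, and Cd68 stayed at 5. Myh11 and Tagln of smooth muscle went from 33 to 42 and from 7 to 13, and Cnn1 from 2 to 1. Actn3 of skeletal muscle, Cd52 of white blood cells, Apoa1 and Serpina1a of liver and Snap25 and Syt1 of neurons were at 0 counts in every library, but so were Actg1 and Ppia, which most cells express strongly, so a 0 here does not show absence. The part of these cells in the results was not tested, and fewer cells of a type cannot be told apart from less RNA per cell.

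Pkm, pyruvate kinase of muscle and most tissues, had 430, 487 and 531 CPM-nuc in controls and 753, 1031, 500 and 700 in knockouts. Only knockout 3 lay within the control range. The log2 fold change was 0.62 ± 0.32 (edgeR adjusted p = 0.256), and Gm49759 on the same strand overlaps its exons. The 2 splice forms of Pkm cannot be told apart in counts per gene.

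The ratio of Ldha to Ldhb did not differ beyond the spread between knockout libraries. Ldha, the subunit that dominates in glycolytic muscle, had 196, 150 and 190 CPM-nuc in controls and 377, 112, 167 and 201 in knockouts, and knockout 1, the highest, rests on 11 counts. Its log2 fold change was 0.21 ± 0.37 (edgeR adjusted p = 0.792), slightly negative (-0.058) with TMM scaling. Ldhb, the subunit typical of heart, had 724, 555 and 835 CPM-nuc in controls and 479, 471, 555 and 493 in knockouts. The lowest control and the highest knockout were 0.1 CPM-nuc apart, so they met without overlapping. The fold change of Ldhb was -0.49 ± 0.26 on the log2 scale (edgeR adjusted p = 0.268), positive under scaling to total, mitochondrial or microRNA counts, and passed in DESeq2 with its own size factors (-0.74, adjusted p = 0.0421). In the authors' deposited table Ldhb stood at -0.73 (adjusted p = 0.123).

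Within each library the log2 ratio of Ldha to Ldhb was -1.84, -1.87 and -2.10 in controls and -0.33, -1.97, -1.70 and -1.28 in knockouts. Its mean went from -1.94 ± 0.14 (SD, n = 3) to -1.32 ± 0.71 (SD, n = 4), a difference of 0.62 with overlap (two-sided exact permutation test, p = 0.2, also after adjustment over 3 ratios). Without knockout 1 the difference was 0.29. Summed over libraries, there were 49 Ldha and 192 Ldhb counts in controls and 66 and 168 in knockouts. Of the 25-base stretches, 22.4% of those of Ldha and 38% of those of Ldhb also occur in a pseudogene, and none is shared between the pair.

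**Figure D2:**
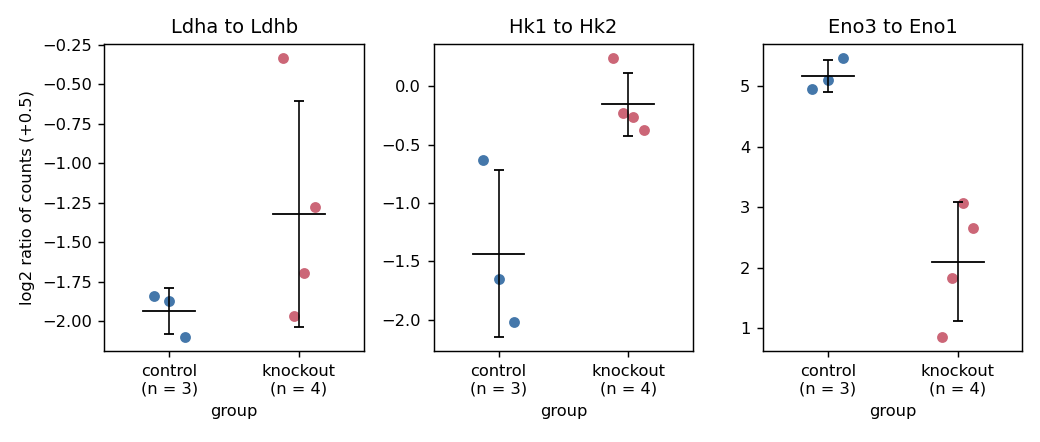
The log2 ratio of counts within each library (vertical axis, 0.5 added to each count, separate scale in each panel) for 3 isoform pairs in control and knockout libraries, with points for libraries and bars for the mean ± SD. Hk1 to Hk2 and Eno3 to Eno1 show no overlap between the groups, while for Ldha to Ldhb knockout 2 at -1.97 lies among the controls.

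Per kilobase of exon, the order of the members differed between the groups. In controls Ldhb (449 ± 89.7 CPM-nuc per kb, SD, n = 3), Eno3 (435 ± 111), Pfkm (370 ± 106) and Aldoa (256 ± 69.4) came first. Of these, Ldhb, Eno3 and Pfkm lay within each other's spread, and Aldoa was below Pfkm by more than the SD of either. Pkm (96.5 ± 10.1), Hk2 (84.0 ± 13.9), Ldha (53.9 ± 7.55) and Hk1 (22.5 ± 9.39) followed. In knockouts Aldoa (422 ± 130, SD, n = 4) and Ldhb (318 ± 24.3) came first, followed by Pfkm (240 ± 32.3). Pkm (149 ± 43.8), Eno3 (142 ± 67.4) and Hk2 (123 ± 21.5) lay apart by less than the SD of Pkm. Hk1 (76.0 ± 3.89) was then above Ldha (64.7 ± 34.6) by less than the spread of Ldha. Exon lengths of Aldoa and Pfkm come from a later version of the gene model than the one counted. The log2 ratio of Hk1 to Eno3 counts, chosen after the values were seen and not tested, was -1.68, -1.50 and -2.81 in controls and 2.12, 1.19, 0.78 and 1.77 in knockouts.

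Of 15 other genes of glucose entry and the hexose steps, 5 could be tested and 1, Pfkp, rose. For this list and those below, the background is all features tested. Of those, 8.3% were called higher and 19.9% lay higher without overlap. Gpi1, which converts glucose 6-phosphate to fructose 6-phosphate, had 313, 256 and 228 CPM-nuc in controls and 514, 381, 583 and 504 in knockouts, without overlap (log2 fold change 0.91 ± 0.25, edgeR adjusted p = 0.0583). Tigar, a phosphatase that opposes glycolysis, was at 1.61 ± 0.47 (adjusted p = 0.0649), and Slc2a4, the insulin-responsive glucose carrier, at -0.77 ± 0.31 (adjusted p = 0.152). Slc2a1, the carrier found in most cells, missed the low-count filter and was singled out after its counts were seen. It had 0, 5 and 3 counts in controls and 2, 9, 7 and 25 in knockouts, a ratio of 4.67 per nuclear protein-coding count (exact 95% interval 2.17 to 11.5, counting error alone).

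Of 11 other genes of the steps from triose to pyruvate, 2 could be tested and neither passed. Tpi1, triosephosphate isomerase, had 274, 231 and 228 CPM-nuc in controls and 342, 336, 375 and 323 in knockouts, without overlap (log2 fold change 0.50 ± 0.20, edgeR adjusted p = 0.156). Pgam2, the muscle phosphoglycerate mutase, was at -0.38 ± 0.45 (adjusted p = 0.648). Among genes of lactate and pyruvate fate 8 of 19 could be tested and 1 rose, Pdk4, the kinase that switches off pyruvate dehydrogenase. Pdk4 went from 333, 281 and 430 to 788, 1412, 1888 and 1066 CPM-nuc, without overlap (log2 fold change 1.89 ± 0.41, edgeR adjusted p = 0.0307). Its call ended without any single control (edgeR adjusted p from 0.0807 to 0.132), without knockout 2 (0.0598) or without knockout 3 (0.0672), and under scaling to total (0.268), mitochondrial (0.276) or microRNA counts (0.954). The pyruvate dehydrogenase genes Pdhx (1.32 ± 0.42, adjusted p = 0.089) and Pdhb (1.28 ± 0.42, adjusted p = 0.0954) did not pass, nor did Bsg, a chaperone of lactate carriers (-0.23 ± 0.27, adjusted p = 0.651).

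Of 10 genes of the shuttles that carry cytosolic NADH into mitochondria, 8 could be tested and none passed. Those with the smallest adjusted p were Gpd1, cytosolic glycerol-3-phosphate dehydrogenase (1.72 ± 0.50, edgeR adjusted p = 0.0647), Got1, cytosolic aspartate transaminase (1.12 ± 0.38, adjusted p = 0.1), and Slc25a13, a mitochondrial aspartate/glutamate carrier (-0.23 ± 0.25, adjusted p = 0.728). Of 9 factors linked to the control of glycolytic genes, 3 could be tested. Hif1a, the oxygen-regulated subunit of hypoxia-inducible factor 1, rose from 176, 99.8 and 50.6 to 788, 1076, 861 and 641 CPM-nuc (log2 fold change 2.98 ± 0.44, edgeR adjusted p = 0.00909), while Ppargc1a, a coactivator of mitochondrial genes (0.57 ± 0.33, adjusted p = 0.459), and Epas1, the related subunit of hypoxia-inducible factor 2 (-0.24 ± 0.31, adjusted p = 0.687) did not pass. The Hif1a call ended without control 2 (edgeR adjusted p = 0.0695) and under scaling to total (0.0811), mitochondrial (0.108) or microRNA counts (0.954). Of 18 cytosolic housekeeping mRNAs, 7 could be tested, with a median of 0.14, and 1 rose, Eef1a1, a translation elongation factor (1.33 ± 0.28, edgeR adjusted p = 0.027, or 0.0534 with TMM scaling). The Eef1a1 call also ended without any single control (from 0.0733 to 0.121), knockout 2 (0.0528) or knockout 3 (0.0672), with no low-count filter (0.152), and under scaling to total (0.461), mitochondrial (0.42) or microRNA counts (0.954). Rps3 (0.95 ± 0.44, adjusted p = 0.213) and Eef2 (0.51 ± 0.31, adjusted p = 0.332) did not pass, nor did Sdha, a nuclear gene for a mitochondrial enzyme (-0.40 ± 0.38, adjusted p = 0.554). Of the pathway and housekeeping genes named, Tigar, Pfkl, Pdhx, Gpd1, Hif1a, Ppargc1a and Rps3, like Pfkp, had control means under the 139 CPM-nuc that the filter asks for, so they entered the test through the knockouts.

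**Figure D3:**
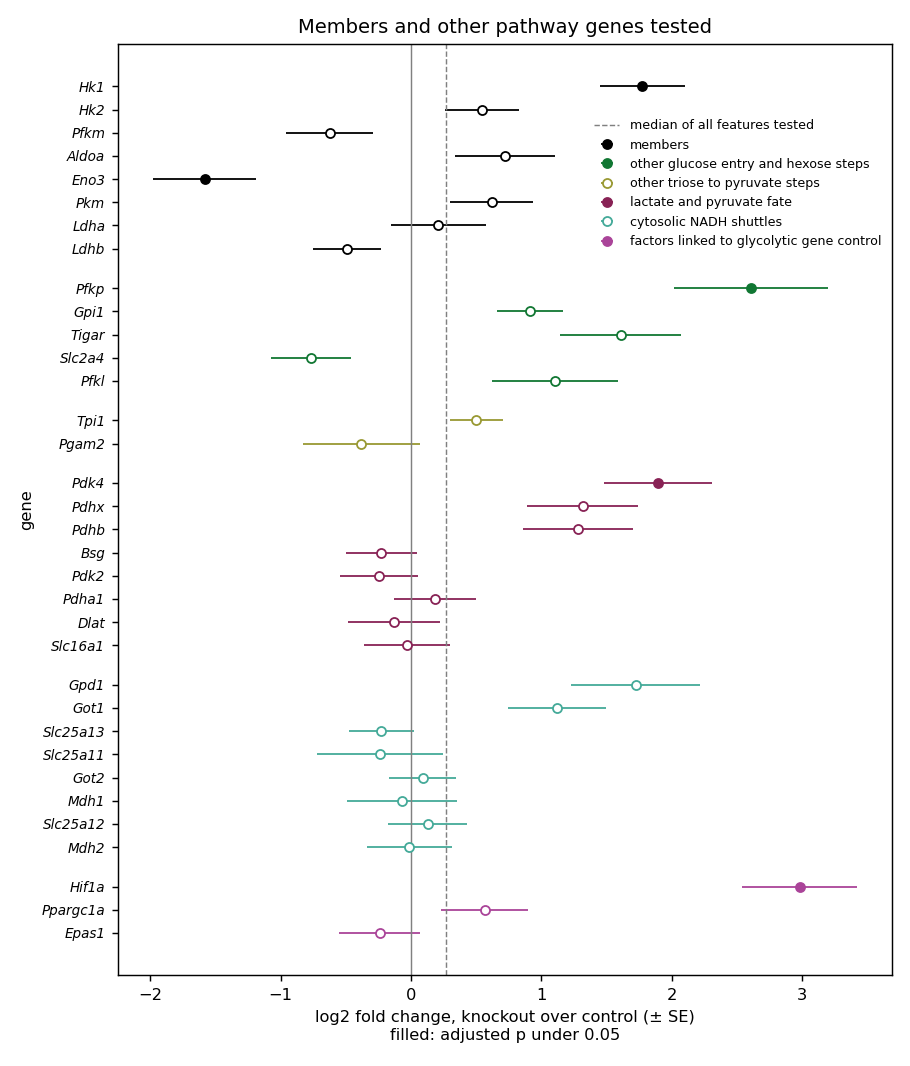
Log2 fold change of knockout over control with its SE (horizontal axis) for the 8 members and the 26 other pathway genes tested (vertical axis), filled where the adjusted p was under 0.05, with a dashed line at the median of all features tested (0.27). Filled points on the right are Hk1, Pfkp, Pdk4 and Hif1a, and Eno3 at -1.58 is the one filled point on the left.

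Among the 5 genes whose level followed the summed members most closely, out of 1305 nuclear protein-coding genes compared, were Selenof (Pearson r = 0.993), Wtap (0.952), Acadl (0.948) and Myom1 (0.939). Over all 7 libraries Selenof had only 77 counts and Wtap 160, while Acadl had 834 and Myom1 663. These correlations are given as a description over 7 libraries, which share their scaling.

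**Figure D4:**
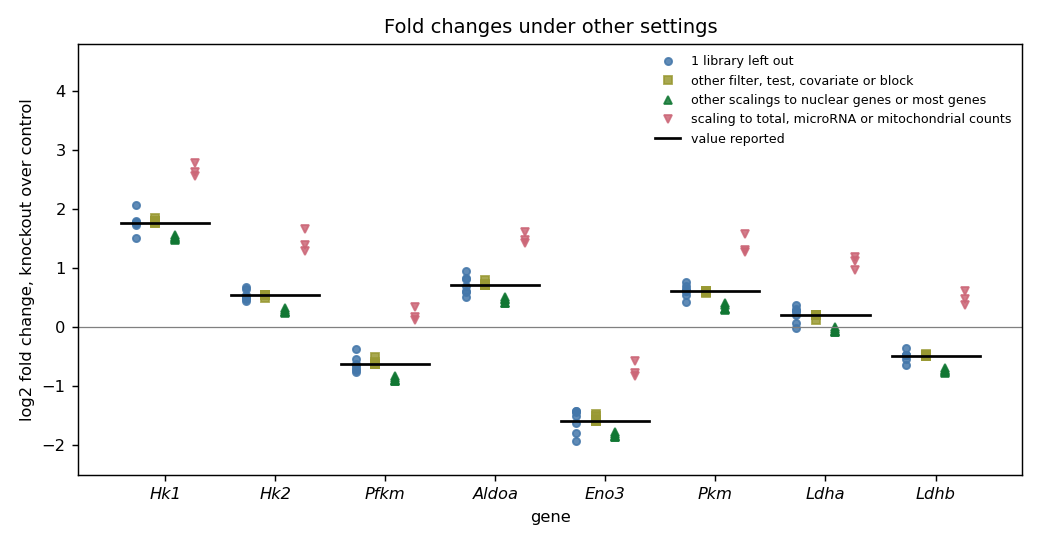
Log2 fold change of knockout over control (vertical axis) for the 8 members tested (horizontal axis), with a line for the value reported and points for 22 alternative settings. Ldha lacks the point for a minimum count of 20, where it missed the filter. Hk1, Hk2, Aldoa, Eno3 and Pkm keep their sign under every setting, while Pfkm, Ldha and Ldhb cross 0 under some.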

How the data were processed

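Small RNA libraries were made from RNA of crude heart mitochondria, so a count for an mRNA is a count of its fragments. The authors deposited raw counts per feature, 1 column per library. The submitters' processing notes name featureCounts, Bowtie2, cutadapt 1.10, bedtools, SAMtools 1.3.1, DESeq2 1.14.1 and R 3.3.2, without roles, and build mm10. The series describes 4 control mice, and 3 control libraries were analysed here. The authors' deposited table of comparison results lists p-values, a Wald score, a log2 fold change and a mean signal, per the file headers, and no source used here says which libraries went into it.

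All features were fitted in R 4.3.3 with edgeR 4.0.16 (quasi-likelihood test between 2 groups, two-sided, with no covariate and with nuclear protein-coding totals as library sizes). The default filter on low values, at 10 counts, asked for about 139 CPM-nuc in 3 libraries. This left 1602 features, and SEs are the fold change divided by the root of F. Ratios within libraries used log2(count + 0.5) and an exact permutation test on the absolute difference of means (numpy 2.4.6, pandas 2.3.3, scipy 1.17.1). The procedure was tested on simulated data for knockout against control (1683 features tested), where it called 3.19% of 94 features with a true absolute log2 fold change of 1 and 52.6% of 97 with one of 2, so a member of small change that did not pass may still differ. Positions, exon lengths and 25-base stretches came from GENCODE M21 (GRCm38), with coordinates printed only for identical gene versions, and promoter windows from RefSeq (GRCm38.p6), where all 10 members matched.

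The members and gene lists were chosen with earlier results of these data known. The text names all members, every called gene of the pathway lists, the next 3 or fewer tested genes of each list by adjusted p, and the 5 genes most like the members' sum, of which 1 is not reported here. Pfkm to Pfkp, Hk1 to Eno3, Slc2a1 and single cell type markers were singled out after their values were seen. Alternatives were other scalings, filters, DESeq2 1.42.0, a covariate, the replicate number as a block and each library left out.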

Additional observations from a re-analysis of the deposited data

How the results depend on the processing

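The count of members called higher (1, Hk1) became 0 under scaling to total, mitochondrial or microRNA counts and with the replicate block, and ran from 0 to 1 with a library left out. The count called lower (1, Eno3) became 0 under the same 4 settings and with a minimum count of 5, was 3 in DESeq2 with its own size factors (Eno3, Pfkm and Ldhb), and ran from 0 to 1 with a library left out. With the replicate block the fold changes of Hk1 and Eno3 were 1.85 and -1.47 (edgeR adjusted p = 0.0874 and 0.14), and the block moved no other member past the threshold. The deviations of same-numbered libraries from their group means had correlations of 0.249, -0.244 and 0.186. Those of unlike number ran from -0.404 to 0.405. With 3 and 4 libraries, whose deviations cancel within each group, these values cannot decide whether same-numbered libraries are paired.

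Of all features, 133 were called higher and 25 lower. These counts were 77 and 42 with TMM, 83 and 44 with TMM over nuclear protein-coding genes, 74 and 45 with DESeq2 size factors in edgeR, 13 and 1 with total counts, 11 and 1 with mitochondrial counts, 0 and 0 with microRNA counts (edgeR, with 32 at an unadjusted p under 0.05), 211 and 54 with no low-count filter, 222 and 63 with nuclear protein-coding genes fitted alone, 323 and 121 with small RNA content (microRNA plus snoRNA over nuclear protein-coding counts) as a covariate, and 15 and 0 with the replicate block. The count called lower was also 42 without the 20 most abundant genes in the scaling, 58 in DESeq2 with nuclear protein-coding scaling and 113 in DESeq2 with its own size factors. With a library left out they ran from 12 (control 2) to 136 higher and from 1 (control 2) to 24 lower. The causes were not tested.

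Pfkm was at 0.12, 0.34 and 0.18 and Ldhb at 0.37, 0.62 and 0.48 under scaling to total, mitochondrial and microRNA counts. Ldha was at -0.058 and -0.036 with TMM over all or over nuclear protein-coding genes, -0.080 with DESeq2 size factors, -0.081 in DESeq2 with its own size factors, and from -0.0061 (without knockout 1) to 0.38 with a library left out.

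Of the other genes named, those that passed kept their sign under every alternative, but their calls ended under scaling to total, mitochondrial or microRNA counts. With the replicate block those of Pfkp (edgeR adjusted p = 0.1), Pdk4 (0.0936), Hif1a (0.0703), Eef1a1 (0.0936), Cd74 (0.0798) and Acta2 (0.132) ended, and with DESeq2 size factors those of Pfkp (0.0544), Pdk4 (0.0536) and Eef1a1 (0.0712). Under scaling to total, mitochondrial and microRNA counts, in that order, Pgam2 was at 0.45, 0.63 and 0.79, Bsg at 0.53, 0.79 and 0.53, Slc25a13 at 0.56, 0.77 and 0.59, Epas1 at 0.74, 1.0 and 0.88, and Sdha at 0.36, 0.57 and 0.50. Slc2a4 was at 0.092 and 0.36 under the first and the second of these, and Pgam2 ran from -0.63 to 0.14 over the fits without one library, the latter without control 1.

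The difference in Hk1 to Hk2 was 1.4 by medians (exact permutation p = 0.0571) and from 0.98 to 1.68 with a library left out, and that in Eno3 to Eno1 was -2.87 by medians (exact permutation p = 0.114) and from -3.40 to -2.66. With 6 libraries an exact permutation test cannot reach p = 0.05 (smallest 0.0667 or 0.1), so those values carry size and direction alone. Ldha to Ldhb ranged from 0.29 to 0.83 and never passed. The counts of Gapdh, Pgk1 and Eno1 are too few for a fold change of known size.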
